A study of Mus musculus with 8 samples.

Results

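A set of 10 genes of MHC class I antigen presentation was followed through single-cell RNA sequencing of mouse endothelial cells: B2m, H2-K1, H2-D1, Tap1, Tap2, Tapbp, Psmb8, Psmb9, Psmb10 and Nlrc5. They were chosen by symbol as a named pathway, and each matched 1 of the 30406 gene identifiers found in both deposited feature lists, so the list holds 10 of 30406 genes. The donors were male ROSA26-eYFP+/+ Cdh5-CreERT2+ animals, where tamoxifen turns on a yellow fluorescent protein in cells that have used the endothelial Cdh5 promoter. All groups share this genotype and the tamoxifen food, which was given for 2 weeks from 6 weeks of age. The groups differ in diet, normal chow (5.8% fat) against high fat diet (60% fat), eaten for 12 to 13 weeks from week 8, and in tissue, mesentery against epididymal adipose. There are 4 groups: chow mesentery, chow adipose, high fat mesentery and high fat adipose. Each has 2 libraries, from run A and run B of an experiment that was done again as a whole, and every library pools 6 mice, so n is 2 pools of mice a group and cells are not replicates. YFP-positive cells were sorted and loaded on the 10x Genomics 3′ platform with about 5000 cells as the target.

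MHC class I molecules show short peptides from a cell's own proteins to CD8 T cells. The immunoproteasome cuts proteins into such peptides, the TAP transporter carries them into the endoplasmic reticulum, and tapasin bridges TAP to the heavy chain while the peptide is loaded. The heavy chain reaches the surface together with beta-2-microglobulin. Nlrc5 is the transactivator of class I genes, and interferon-gamma is the best known inducer of the whole set. Endothelial cells carry class I on their surface constantly, and lymphatic endothelial cells are known to present antigen to T cells.

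The sequences before the RefSeq starts of the heavy and light chain genes show the motifs this induction is known for, and they are printed here because these genes differed together in the libraries. RefSeq promoter windows (GRCm38.p6, 250 bases before RefSeq's start) matched 8 of the 10 genes; Tap2 and Nlrc5 had no match. RefSeq's starts differ from those of the GENCODE vM21 genes given below: the windows of H2-D1, Tapbp, Psmb8 and Psmb9 lie wholly inside the GENCODE gene and that of Psmb10 partly, so they need not be upstream of every transcript. The letters searched on both strands were AANNGAAA (an interferon regulatory factor core), the kB motif (GGG, any 2 bases, TT, any base, CC), TGACG (the core of a cAMP response element) and CCAAT, and they were chosen after the sequences had been seen. Capitals mark them, in reverse complement where the motif lies on the other strand. The first line is the minus strand of chr17:34000348-34000597, directly upstream of H2-K1, and the second the plus strand of chr2:122147437-122147685, directly upstream of B2m.
H2-K1 upstream: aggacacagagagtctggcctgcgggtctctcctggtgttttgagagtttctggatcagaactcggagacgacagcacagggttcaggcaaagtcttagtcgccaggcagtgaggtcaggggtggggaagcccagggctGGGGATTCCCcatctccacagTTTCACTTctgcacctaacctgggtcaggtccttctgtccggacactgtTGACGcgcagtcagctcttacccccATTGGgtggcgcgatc
B2m upstream: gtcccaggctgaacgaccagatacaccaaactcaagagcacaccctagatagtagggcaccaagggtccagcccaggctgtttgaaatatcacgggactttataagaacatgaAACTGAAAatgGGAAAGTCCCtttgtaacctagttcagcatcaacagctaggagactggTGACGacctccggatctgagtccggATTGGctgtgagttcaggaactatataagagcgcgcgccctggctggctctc
The next 3 lines set the kB and interferon regulatory factor letters side by side (H2-K1 chr17:34000430-34000458, minus strand; H2-D1 chr17:35262923-35262951, plus strand, inside the GENCODE gene; B2m chr2:122147550-122147570, plus strand).
H2-K1 stretch: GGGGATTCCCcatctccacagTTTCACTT
H2-D1 stretch: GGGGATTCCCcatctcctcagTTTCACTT
B2m stretch: AACTGAAAatgGGAAAGTCCC

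The H2-K1 and H2-D1 stretches were identical at 28 of 29 bases, and 166 of 190 aligned bases of their windows (87.4%) were the same. In B2m both motifs stand in the opposite order and on the opposite strand. The interferon regulatory factor core and the kB letters were found together in these 3 genes only, out of the 8 with a window, at RefSeq's starts; over 32851 windows of the same length, 21.3% hold the first and 4.1% the second. TGACG was found in 5 of the 8 (B2m, H2-K1, H2-D1, Tap1, Psmb9) and in 17.8% of all windows, and CCAAT in 6 of the 8 (the same 5 and Tapbp) and in 33.8%. The windows of Tap1 (chr17:34187306-34187555) and Psmb9 (chr17:34187331-34187580) mostly overlap on opposite strands. Their TGACG and CCAAT matches are the same bases counted for both genes, so these counts are not of separate sequences. A match describes the letters and is not shown to be a binding site.

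In the mm10 build (GRCm38), which the submitters' processing notes name, and by GENCODE vM21, used here for positions, 7 of the 10 genes lie on chromosome 17 in the mouse MHC region. Tap1 (chr17:34187553-34197225, plus strand) and Psmb9 (chr17:34181987-34187764, minus strand) overlap at their 5′ ends, with Psmb8 (chr17:34197721-34201454) and Tap2 (chr17:34203527-34216321) next to them. Tapbp (chr17:33915899-33929292) and H2-K1 (chr17:33996017-34000347) lie on one side of this block and H2-D1 (chr17:35262730-35267499) on the other. B2m lies on chromosome 2 (122147686 to 122153083), and Nlrc5 (94434356 to 94527272) and Psmb10 (105935735 to 105938444) on chromosome 8. The class I heavy chains share some sequence: of the 31-base words in the last 500 transcript bases, 8.1% for H2-K1 and 10.2% for H2-D1 also occur in another class I gene, so their split is uncertain where such reads were shared out or dropped. For H2-D1 such words also occur in 668 genes outside class I, and for the other members in none, so the H2-D1 count carries a further uncertainty. Tapbp overlaps Zbtb22 on its own strand, which leaves reads in the shared part uncertain.

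Of 27944 deposited barcodes, 23113 passed the filters and the doublet step. The libraries of run A held 3461360 to 6714473 UMIs (unique molecules counted) and those of run B 18829960 to 36779289, and 22.8 to 30.8% of barcodes in run A but 5.4 to 9.0% in run B exceeded 10% mitochondrial counts. Libraries shared 0 to 9 barcodes in each of 28 pairs. Cells were clustered without the 10 genes and their pathway, and clusters were called arterial-like, capillary-like, venous-like or lymphatic-like from marker lists; 688 to 4451 cells a library were endothelial, and all 9 endothelial markers were detected in each library's endothelial sum and all 8 lymphatic markers in each lymphatic-like sum. Capillary-like cells of run A numbered only 19, 41, 19 and 138, and 2 of the 4 lymphatic-like clusters (4 and 24) held nearly only run A cells while another (9) held only run B cells. Raw counts were summed per library and class, given as CPM (counts per 1000000 of the sum) with TMM scaling, and tested with edgeR's quasi-likelihood test with Benjamini-Hochberg adjustment over all genes tested, without the run and, because the labels pair the libraries by run, also with the run as a block.

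In lymphatic-like cells on chow the class I genes differed between the tissues. The level in mesentery was above that in adipose for 10 of 10 genes in both runs, with a median fold of 3.37 in run A and 4.05 in run B. The 2 mesentery libraries lay above both adipose libraries for all 10 genes, as they did for 19.5% of the 9316 genes tested. Without the run in the fit, 192 genes passed (2.06%) but 0 of the 10, all of which had an unadjusted p under 0.05, with adjusted p from 0.0584 to 0.414; DESeq2 called 5 of the 10 and 300 genes (3.22%). Of all 9316 genes, 1064 had such an unadjusted p in edgeR without the run. With the run as a block, 896 genes passed (9.62%, 6.39% higher in mesentery), and 10 of 10 class I genes were higher in mesentery. Their median log2 difference was 1.89 without and 1.85 with the block, beside 0.00 over all genes. Fewer of the 10 were called with the block when the chow adipose library of run B was left out, but that fit leaves 1 library in the group. Over the fits with the block and any 1 library left out, Tap1 ranged from 2.01 to 2.44. B2m ranged from 1.56 to 2.20 and Tapbp from 0.76 to 1.01.

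The light chain B2m, which every class I heavy chain needs to reach the surface, measured 2394 and 4011 CPM in chow mesentery (run A, run B) and 719 and 1016 CPM in chow adipose. In high fat mesentery it measured 844 and 1688 CPM, and in high fat adipose 604 and 2022 CPM. Both chow mesentery libraries stand above the other 6, and high fat adipose has the widest ratio between runs. The chow tissue difference was 1.84 on the log2 scale with the block (SE 0.29, edgeR adjusted p = 0.00132).

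H2-K1, a classical heavy chain, measured 3379 and 3649 CPM in chow mesentery and 755 and 824 CPM in chow adipose. It measured 1537 and 1467 CPM in high fat mesentery and 801 and 1854 CPM in high fat adipose. The 2 runs lie close together in 3 of the 4 groups, and high fat adipose spans the range from chow adipose to above high fat mesentery. H2-D1, the other classical heavy chain, measured 3145 and 4150 CPM in chow mesentery, 1275 and 1637 CPM in chow adipose, 1342 and 2217 CPM in high fat mesentery, and 1077 and 2721 CPM in high fat adipose. The log2 tissue difference on chow with the block was 2.15 for H2-K1 (SE 0.31, edgeR adjusted p = 0.000612) and 1.32 for H2-D1 (SE 0.27, edgeR adjusted p = 0.00741).

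Tap1 and Tap2 are the subunits of the peptide transporter. Tap1 measured 125 and 121 CPM in chow mesentery, 29.4 and 23.4 CPM in chow adipose, 54.3 and 33.7 CPM in high fat mesentery, and 23.8 and 60.2 CPM in high fat adipose. Its log2 tissue difference on chow, 2.21 (SE 0.37, edgeR adjusted p = 0.00168 with the block), was numerically the largest of the 10, a little above H2-K1. Tap2 measured 183 and 210 CPM in chow mesentery, 41.0 and 86.4 CPM in chow adipose, 30.4 and 88.8 CPM in high fat mesentery, and 30.5 and 112 CPM in high fat adipose. The run B level of Tap2 was above that of run A in each of the 4 groups, and its tissue difference on chow was 1.74 (SE 0.33, edgeR adjusted p = 0.0045 with the block).

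Tapbp encodes tapasin, the bridge between TAP and the heavy chain. It measured 204 and 200 CPM in chow mesentery against 99.8 and 120 CPM in chow adipose, and 107 and 115 CPM in high fat mesentery against 112 and 139 CPM in high fat adipose. Its runs lie close together in every group, and its tissue difference on chow was numerically the smallest of the 10 at 0.88 on the log2 scale (SE 0.21, edgeR adjusted p = 0.0173 with the block).

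Psmb8, Psmb9 and Psmb10 replace the catalytic subunits of the constitutive proteasome to form the immunoproteasome. Psmb8 measured 364 and 525 CPM in chow mesentery, 136 and 104 CPM in chow adipose, 182 and 161 CPM in high fat mesentery, and 115 and 290 CPM in high fat adipose. Psmb9 measured 168 and 313 CPM in chow mesentery, 49.4 and 63.1 CPM in chow adipose, 52.3 and 84.3 CPM in high fat mesentery, and 45.2 and 149 CPM in high fat adipose. Both genes show the same layout of groups, with both chow mesentery libraries on top and the high fat adipose library of run B next. Psmb10 measured 178 and 229 CPM in chow mesentery and 96.7 and 56.0 CPM in chow adipose. In high fat mesentery it measured 124 and 88.8 CPM, and in high fat adipose 93.9 and 151 CPM. The log2 tissue difference on chow with the block was 1.85 for Psmb8 (SE 0.34, adjusted p = 0.00352), 2.04 for Psmb9 (SE 0.29, adjusted p = 0.000574) and 1.42 for Psmb10 (SE 0.31, adjusted p = 0.0112) in edgeR.

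Nlrc5, the transactivator, had the fewest UMIs of the 10, 4 to 80 a library. It measured 29.2 and 18.8 CPM in chow mesentery, 6.31 and 4.67 CPM in chow adipose, 14.2 and 11.2 CPM in high fat mesentery, and 11.3 and 12.3 CPM in high fat adipose. Both chow mesentery libraries are the highest, and the chow adipose libraries the lowest. The tissue difference on chow was 2.07 on the log2 scale (SE 0.43, edgeR adjusted p = 0.0076 with the block).

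**Figure D1:**
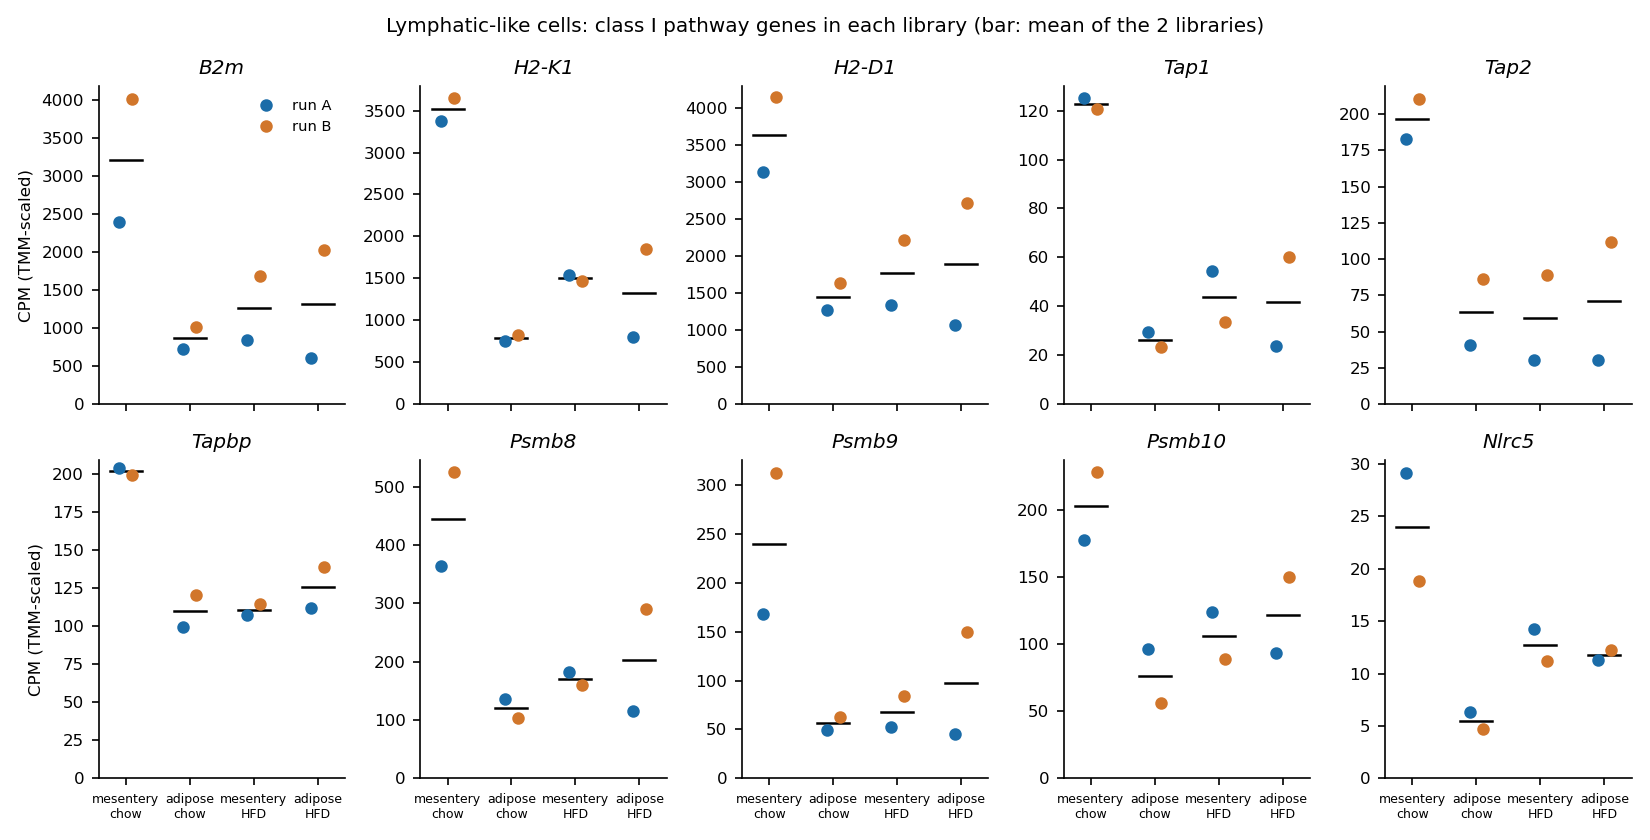
Lymphatic-like cells: TMM-scaled CPM of each of the 10 genes (1 panel each, linear axis from 0) in the 4 groups; points are the libraries of run A and run B and the bar is the mean of 2. Both chow mesentery points lie above both chow adipose and both high fat mesentery points in every panel, for example B2m at 2394 and 4011 CPM against 719 and 1016 CPM in chow adipose.

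The diet comparison in mesentery ran the other way. In lymphatic-like cells the level on high fat diet was below that on chow for 10 of 10 genes in both runs, with a median fold of 0.445 in run A and 0.411 in run B, and the groups overlapped for none of the 10; 19.3% of all genes tested were lower without overlap. Without the run in the fit, edgeR called 0 genes (0.0%), with an unadjusted p under 0.05 for 7 of the 10 and adjusted p from 0.281 to 0.668, and DESeq2 called 0 of the 10 (8 with an unadjusted p under 0.05; 1.26% of all genes called). Of all 9316 genes, 809 had an unadjusted p under 0.05 in that edgeR fit and 559 in DESeq2. With the run as a block, 601 genes passed (6.45%, 4.22% lower on high fat diet), among them 8 of the 10 class I genes, all lower. The median log2 change was -1.28 without and -1.27 with the block. In the edgeR fit with the block, the immunoproteasome subunits Psmb9 and Psmb8 changed by -1.78 (SE 0.27, adjusted p = 0.00215) and -1.33 (adjusted p = 0.0277) on the log2 scale. The transporter subunits Tap2 and Tap1 changed by -1.91 (adjusted p = 0.00408) and -1.43 (adjusted p = 0.0206), and Tapbp by -0.86 (adjusted p = 0.0245). B2m changed by -1.38 (adjusted p = 0.0122), and the heavy chains H2-K1 and H2-D1 by -1.21 (adjusted p = 0.0274) and -1.07 (adjusted p = 0.0316). Psmb10 (adjusted p = 0.092) and Nlrc5 (adjusted p = 0.184) did not pass. Fewer of the 10 were called with the block when either high fat mesentery library was left out, but such a fit leaves 1 library in that group. Over the fits with the block and any 1 library left out, Psmb9 ranged from -1.93 to -1.59. B2m ranged from -1.54 to -1.17 and Psmb10 from -1.26 to -0.60.

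In adipose the 2 runs went apart with diet. The median fold of high fat over chow in lymphatic-like cells was 0.884 in run A and 2.31 in run B, and 3 of the 10 genes were higher in both runs (Tapbp, Nlrc5 and H2-K1). B2m shows the spread, with 719 to 604 CPM in run A and 1016 to 2022 CPM in run B. edgeR without the block called 0 of 10, 0 with an unadjusted p under 0.05, and 0.0% of all genes. With the block it called 0, and 1 of the 10 had an unadjusted p under 0.05, beside 343 of 9316 genes. DESeq2 called 0. Between the tissues on high fat diet the median fold of mesentery over adipose was 1.29 in run A and 0.794 in run B, and 0 of 10 passed in edgeR without the block (0 with an unadjusted p under 0.05; 0.0% of all genes called), with it (0 with an unadjusted p under 0.05; 0.236% of all genes called) or in DESeq2 (0.15%).

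The interaction, the diet change in mesentery minus the diet change in adipose, asks whether diet acted alike in the tissues. Its median over the 10 genes was -1.95 on the log2 scale without the block, where edgeR called 0 genes (0.0%; 7 of the 10 with an unadjusted p under 0.05) and DESeq2 called 0 of the 10 (0.0859% of all genes). Of all 9316 genes, 385 had an unadjusted p under 0.05 in the edgeR fit without the block. With the block 47 genes passed (0.505%), and Psmb9 was the 1 member among them, at -2.44 (SE 0.41, edgeR adjusted p = 0.0363). The other 9 were negative as well, none above -1.05, and did not pass; DESeq2 with the block called 4 of the 10 (0.698% of all genes). Leaving out single libraries moved the calls of members with the block in both directions, but each such fit leaves 1 library in a group. In these fits Psmb9 ranged from -2.87 to -1.79, H2-K1 from -2.42 to -1.24 and Tapbp from -1.18 to -0.89. Over all alternatives, 0 of 308 values of the 10 genes changed sign.

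The lymphatic-like class was not the same mixture of cells in each group. Cluster 14, 571 cells led by Marco, Bmp2, Serpina3g, Cyp1b1 and Cd55, made up 24% of lymphatic-like cells in chow mesentery of run A (exact 95% interval 20.1 to 28.1%) and 56.3% in run B (52.6 to 59.8%). It made up 7.0% (4.84 to 9.85%) and 2.3% (0.479 to 6.60%) in high fat mesentery and 0 of 762, 168, 437 and 188 cells in the adipose libraries, where a count of 0 allows up to 0.394, 1.79, 0.686 and 1.60%. These limits cover counting error only. The cluster carried the lymphatic regulator Prox1 at 444 CPM and Lyve1 at 1873 CPM. Of the other markers of the list, Mmrn1 was at 168 CPM, Reln at 32.7 CPM, Flt4 at 193 CPM and Thy1 at 23.3 CPM. In clusters 4, 9 and 24 Mmrn1 measured 3629, 4109 and 688 CPM and Reln 1340, 1130 and 233 CPM. Flt4 measured 1112, 757 and 302 CPM there, and Thy1 608, 393 and 344 CPM. Tbx1 (133 CPM) was also lower than in these clusters, and Pdpn (70.3 CPM) was lower than in clusters 4 and 9 only. Its 8 lymphatic markers summed to 2937 CPM, beside 11838 CPM in cluster 4, 11554 CPM in cluster 9 and 2946 CPM in cluster 24. The low sum is shared with cluster 24, where Prox1 was at 914 CPM and Lyve1 at 60.1 CPM. In cluster 14 most of it is Lyve1. Without the top gene of each cluster, the sums were 7629, 7444, 1064 and 2032 CPM in clusters 4, 9, 14 and 24. At clustering resolution 2.0, a cluster of 266 cells led by Marco was named lymphatic-like. Another of 255 cells, led by Coch, Il4i1 and Bmp2, was left without a name. Cluster 14 is called by its number here.

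Within 1 library, cluster 14 was higher than the other lymphatic-like clusters in all 10 genes. The fold ran from 2.33 for H2-D1 to 6.90 for Tap1 in chow mesentery of run A (median 4.50), from 2.34 for Tapbp to 7.33 for Psmb8 in high fat mesentery of run A (median 4.84), and from 1.40 for Tapbp to 3.73 for Psmb9 in chow mesentery of run B (median 2.52). For B2m the values were 4437 against 953 CPM, 2108 against 617 CPM and 4901 against 1904 CPM in that order. Psmb8 measured 721 against 114 CPM, 701 against 95.6 CPM and 665 against 197 CPM. These are descriptions of sums over cells, without a test, and the remaining library with such cells, high fat mesentery of run B, had only 3.

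**Figure D2:**
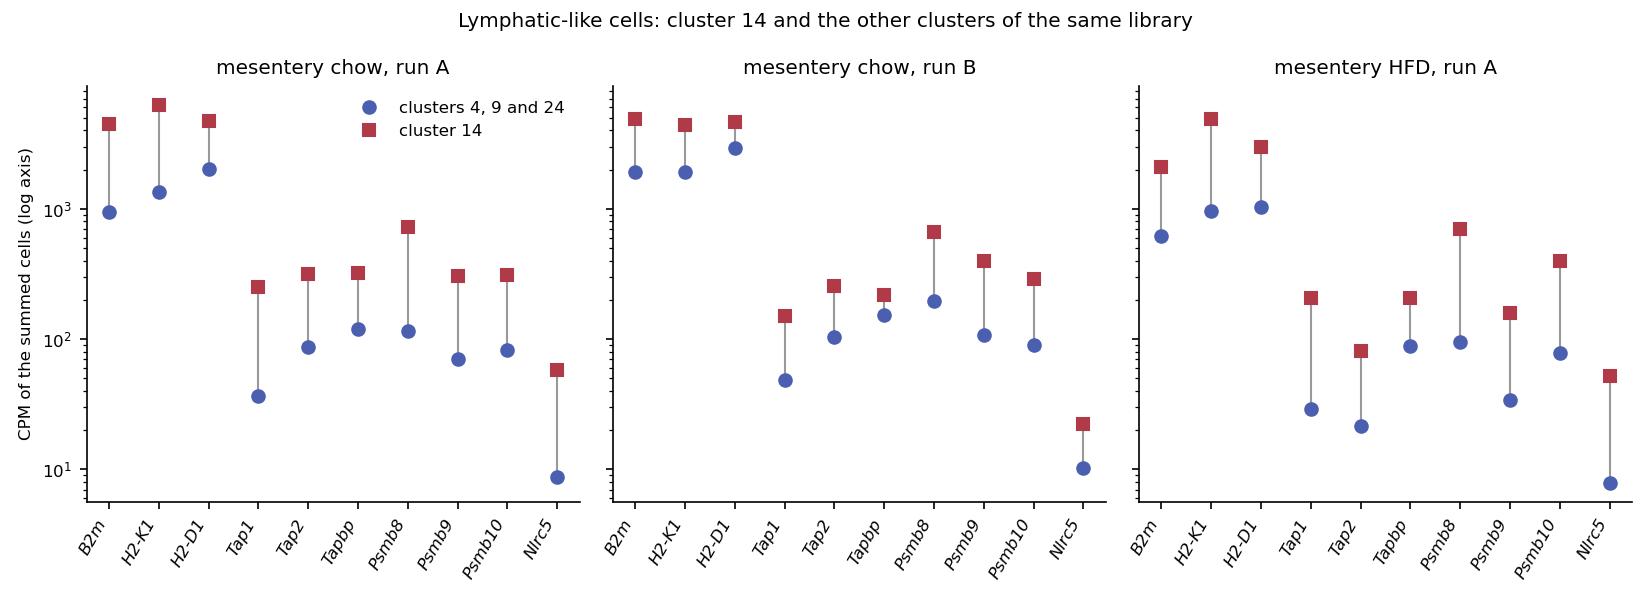
Summed CPM (log axis) of the 10 genes in cluster 14 (squares) and in clusters 4, 9 and 24 together (circles) of the same library, for the 3 libraries with 20 or more cells of cluster 14; grey lines join the 2 values of a gene. Every square lies above its circle, by 1.40-fold for Tapbp in chow mesentery of run B up to 7.33-fold for Psmb8 in high fat mesentery of run A.

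With cluster 14 left out, an alternative added after the data had been seen, the tissue difference on chow shrank to a median log2 of 0.69 without the block (0 of 9 called, 1 with an unadjusted p under 0.05) and 0.66 with it. Nlrc5 then no longer passed the filter on low counts. Of all 8922 genes, 266 had an unadjusted p under 0.05 in edgeR for tissue on chow without the block. For diet in mesentery with the block, 1118 had one. With the block, 144 of 8922 genes passed (1.61%) and 1 of the 9 class I genes was higher, where 10 of 10 had been with the cluster. The diet change in mesentery had a median of -0.46 with 0 of 9 called by edgeR in both fits (4 with an unadjusted p under 0.05 and 1.75% of all genes called with the block), and the interaction a median of -1.02 with 0 called. The directions within runs mostly stayed in sums over the remaining cells. The chow mesentery level was above chow adipose in 8 of 10 genes in run A (median fold 1.46) and in 10 of 10 in run B (median fold 1.76). High fat mesentery was below chow mesentery in 10 of 10 genes in run A (median fold 0.728) and in 9 of 10 in run B (0.771). The run A sums mix clusters 4 and 24: 294 and 55 cells in chow mesentery, 307 and 102 in high fat mesentery. In cluster 4 alone Tap1 (19.5 to 26.5 CPM), Psmb8 (78.1 to 81.2) and Psmb10 (65.1 to 80.3) were higher on high fat diet. The other members were lower. The same genes were lower in chow mesentery than in chow adipose (27.8, 125 and 92.9 CPM), the others higher. The part of this mix in the folds was not tested.

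Signs of other cells in the lymphatic-like sums were as follows. The 6 B cell markers summed to 12.0 and 140 CPM in the chow mesentery libraries and to 0.982 to 15.1 CPM in the other 6 libraries. In cluster 14 they summed to 150 CPM, 122 CPM of it the immunoglobulin light chain Igkc. The 10 mural cell markers summed to 139 and 186 CPM in chow mesentery and to 32.8 to 94.4 CPM in the other 6 libraries, so both chow mesentery libraries were the highest, as for the class I genes. In cluster 14 they summed to 239 CPM, 181 CPM of it Rgs5, beside 13.5 to 91.8 CPM in clusters 4, 9 and 24, while Cspg4 and Notch3 were at 0 there. The 6 dendritic cell markers summed to 30.9 and 69.2 CPM in chow mesentery, to 3.93 to 31.6 CPM elsewhere and to 85.0 CPM in cluster 14 (Zbtb46 72.2 CPM), beside 9.69 to 22 CPM in the other lymphatic-like clusters; of this list Cd209a and Xcr1 were at 0 in all 8 lymphatic-like sums. The 5 pan-leukocyte markers summed to 12.8 and 41.2 CPM in chow mesentery and to 11.3 to 24.8 CPM elsewhere, and to 52.0 CPM in cluster 14. The 8 T cell markers summed to 59.5 and 19.0 CPM in chow mesentery and to 20.4 to 45.1 CPM elsewhere, with Cd3e and Cd3d at 0 in all 8 sums. The 9 macrophage markers (140 to 150 CPM in chow mesentery, 137 to 246 CPM elsewhere) and the 8 fibroblast markers (27.8 to 41.4 CPM against 9.78 to 92.8 CPM) did not set chow mesentery apart. The median UMI count of cluster 14 cells was 1.72 times that of their library. The part of these in the class I values was not tested.

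In the blood endothelial classes 0 of the 10 genes passed in any comparison. In arterial-, capillary- and venous-like cells, 15 comparisons gave 0 calls among 150 tests of the 10 genes by edgeR without the block (0 with an unadjusted p under 0.05; 0.00653% of all tests called) and 0 with it (1 with an unadjusted p under 0.05; 0.815% of all tests called). The 1 gene with such a p was in venous-like cells for tissue on chow, where 929 of 10501 genes had one with the block. DESeq2 gave 0 without the block (0.0274% of all tests called) and 0 with it (0.319%). The median log2 change of the 10 genes lay between -0.28 and 0.39. A p that misses the threshold does not show that levels were equal, and single genes had values between -0.89 and 1.15.

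In arterial-like cells, H2-K1 measured 2495 and 1671 CPM in chow mesentery and 2870 and 1781 CPM in chow adipose. On high fat diet it measured 2548 and 2322 CPM in mesentery and 2230 and 2038 CPM in adipose. Run A is the higher run in all groups, and the groups overlap in the diet comparisons and between the tissues on chow. On high fat diet both mesentery libraries lie above both adipose libraries, and the difference did not pass. Psmb8 in the same cells measured 474 and 369 CPM, 395 and 398 CPM, 397 and 487 CPM, and 407 and 463 CPM in chow mesentery, chow adipose, high fat mesentery and high fat adipose. The median log2 change over the 10 genes was 0.12 between the tissues on chow and 0.04 with diet in either tissue.

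In venous-like cells, from the vessels through which leukocytes leave the blood, the median log2 tissue difference on chow was 0.39, with 8 of the 10 genes higher in mesentery in both runs. H2-D1 measured 3335 and 2203 CPM in chow mesentery and 2109 and 1851 CPM in chow adipose, and the groups did not overlap, as for 5 of the 10 genes and 24.8% of all genes tested in either direction. Diet in mesentery split the runs, with a median fold of 0.505 in run A, where only 69 venous-like cells came from high fat mesentery, and 1.34 in run B. Calls of the 10 genes in venous-like cells appeared only with the block and with the chow mesentery library of run B left out. That fit leaves 1 library in the group, and no share of all genes is set beside its calls. In capillary-like cells, B2m in run B measured 2229, 1839, 2509 and 2264 CPM in chow mesentery, chow adipose, high fat mesentery and high fat adipose, and the run A sums rest on too few cells to add to this.

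Tap2 had a run pattern that held in every class. In every class its 2 lowest libraries were both high fat libraries of run A: 57.1 and 55.5 CPM in arterial-like cells, 42.2 and 48.1 CPM in capillary-like cells, 25.9 and 25.1 CPM in venous-like cells and 30.4 and 30.5 CPM in lymphatic-like cells. The high fat libraries of run B measured 179 and 174 CPM in arterial-like cells and 134 and 118 CPM in venous-like cells, at or above their chow libraries. Of the other 9 genes, 0 had both of these libraries lowest in every class, but some had in part of the classes. H2-D1 did in arterial-like cells (2520 and 2208 CPM) and in venous-like cells (1664 and 1463 CPM).

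Over all endothelial cells together, the tissue difference on chow was a median log2 of 0.72, with 10 of 10 genes higher in mesentery in both runs and the groups apart for all 10 (12.9% of all 13323 genes tested were higher without overlap), but 0 of 10 passed in edgeR without the block (3 with an unadjusted p under 0.05; 0.0% of all genes), with it (6 with an unadjusted p under 0.05; 0.383% of all genes) or in DESeq2 (0.593% of all genes). These shares of all genes are at the adjusted threshold. In edgeR, 460 of the 13323 genes had an unadjusted p under 0.05 without the block and 1542 with it. The median fold of the 10 genes was 2.06 in run A and 1.42 in run B. These sums mix classes in shares that differ between libraries, and without cluster 14 the median was 0.58. The 8 adipocyte markers summed to 2370 CPM in chow mesentery and 5341 CPM in chow adipose of run B. They summed to 165 and 68.2 CPM in the high fat libraries of run B and to 4.78 to 30.7 CPM in run A. The part of this in the class I values was not tested. A call for tissue on chow appeared only with the block and with the chow mesentery library of run B left out, which leaves 1 library in that group. Diet had a median log2 change of -0.36 in mesentery and 0.16 in adipose.

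**Figure D3:**
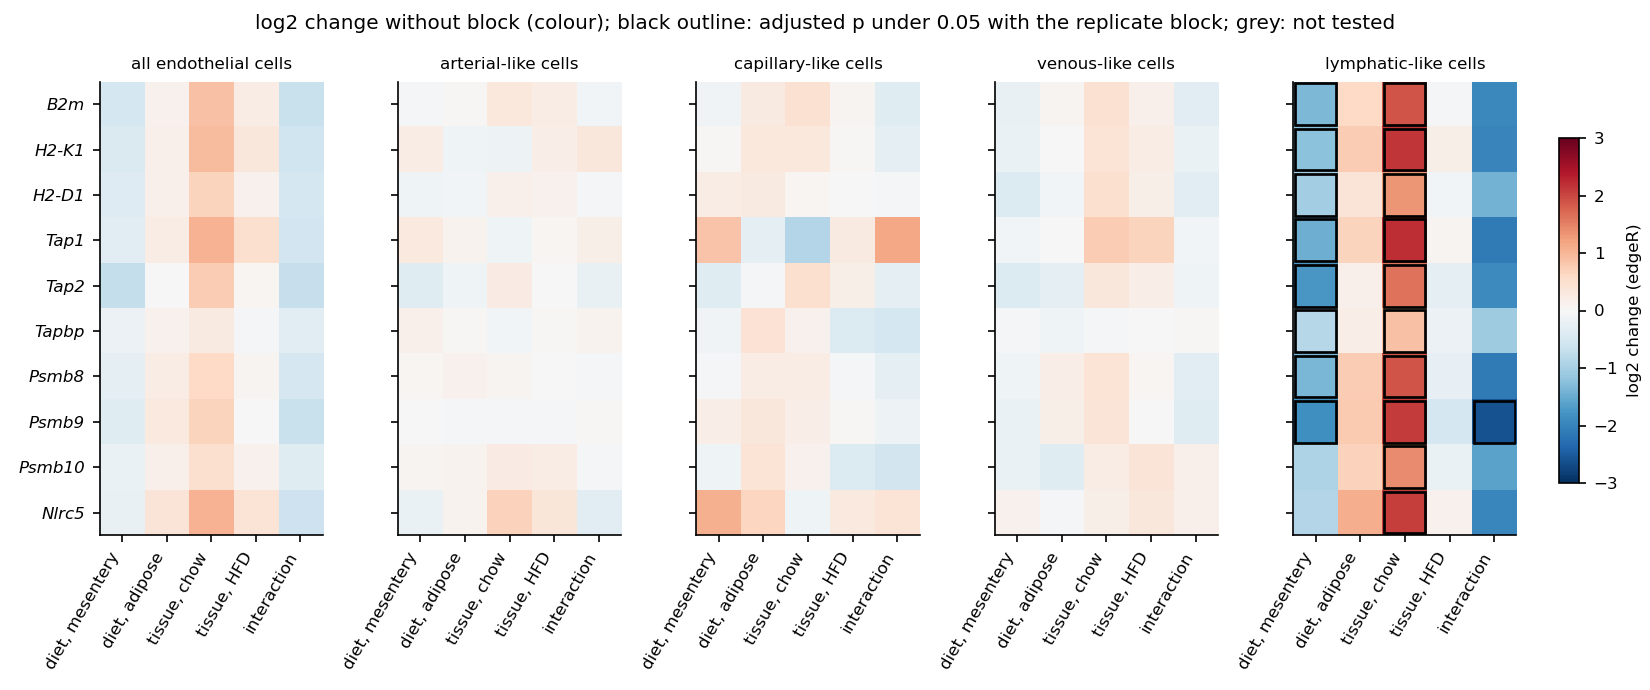
log2 change of the 10 genes (rows) in 5 comparisons (columns) for all endothelial cells and each class, from edgeR without the block (colour, -3 to 3); black outlines mark an adjusted p under 0.05 with the run as a block. The 19 outlined cells are all in lymphatic-like cells: 10 for tissue on chow, 8 for diet in mesentery and 1 for the interaction.

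Between the classes, arterial-like cells mostly had the highest level. The mean level over libraries was highest in arterial-like cells for 7 of the 10 genes, in capillary-like cells for 2 (B2m and Tap1) and in venous-like cells for 1 (Nlrc5), and lowest in lymphatic-like cells for 8. Capillary-like cells have 2 libraries of run A and 4 of run B, and in neither run was their mean of B2m the highest: in run A it was 949 CPM against 1272 CPM in venous-like cells, and in run B 2037 CPM against 2056 CPM in lymphatic-like cells. For Tap1 the capillary-like and arterial-like means were level at 68.8 CPM. Classes come from clustering other genes of the same cells, the libraries are a block in these tests, and 8 libraries entered (6 for capillary-like cells, where sums of fewer than 20 cells were left out). Venous-like against arterial-like cells, 2662 of 10397 genes passed (25.6%, 12.3% lower in venous-like cells), among them 4 of the 10, all lower: Psmb8 at -0.65 (edgeR adjusted p = 0.0171), Tapbp at -0.64 (adjusted p = 0.000234), Tap2 at -0.53 (adjusted p = 0.0232) and H2-D1 at -0.48 (adjusted p = 0.00887) on the log2 scale. Each of these 4 was lower in venous-like cells in 8 of 8 libraries. Capillary-like against arterial-like cells, 2212 genes passed (21.3%, 11.4% lower), with 1 of the 10, Tapbp, which fell by 0.60 (edgeR adjusted p = 0.00202) and was lower in 6 of 6 libraries. That count was 2 without the chow mesentery library of run B, and 0 in run A alone.

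Lymphatic-like cells against the mean of the blood classes gave 4527 genes (43.5%, 20.7% lower), and 5 of the 10 were lower. The log2 differences were -0.88 for Tapbp (edgeR adjusted p = 1.84e-07), -0.72 for Psmb8 (adjusted p = 0.00141), -0.57 for Psmb9 (adjusted p = 0.0186), -0.56 for Psmb10 (adjusted p = 0.00201) and -0.40 for H2-D1 (adjusted p = 0.0068). So many genes were called in this contrast that 5 of 10 called is near the share of all genes, though all 5 were on the lower side. Without cluster 14, 10 of 10 were lower (46.1% of 9906 genes called, 23% lower) with a median of -0.75, and without the chow mesentery library of run B alone, 9 of 10.

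In levels, Tapbp showed the cleanest order. It averaged 317 CPM in arterial-like (SD 20.5, n = 8 libraries), 205 CPM in capillary-like (SD 38.1, n = 6), 203 CPM in venous-like (SD 25.1, n = 8) and 128 CPM in lymphatic-like cells (SD 38.8, n = 8). The lowest arterial-like library (293 CPM) stood above the highest library of any other class (234 CPM), while capillary-like and venous-like cells did not differ beyond their spread. Psmb8 averaged 432 CPM (SD 51.0), 320 CPM (SD 71.4), 281 CPM (SD 63.4) and 219 CPM (SD 139) in the same order. The arterial-like mean lay above the capillary-like one by more than either SD, the other neighbours were within their spread, and the ranges of all neighbouring classes overlapped. B2m did not order the classes at all: its means, 1622, 1674, 1601 and 1557 CPM, differed by far less than the SD of 506 to 1079 CPM. The wide lymphatic-like SD comes with the group differences given above.

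**Figure D4:**
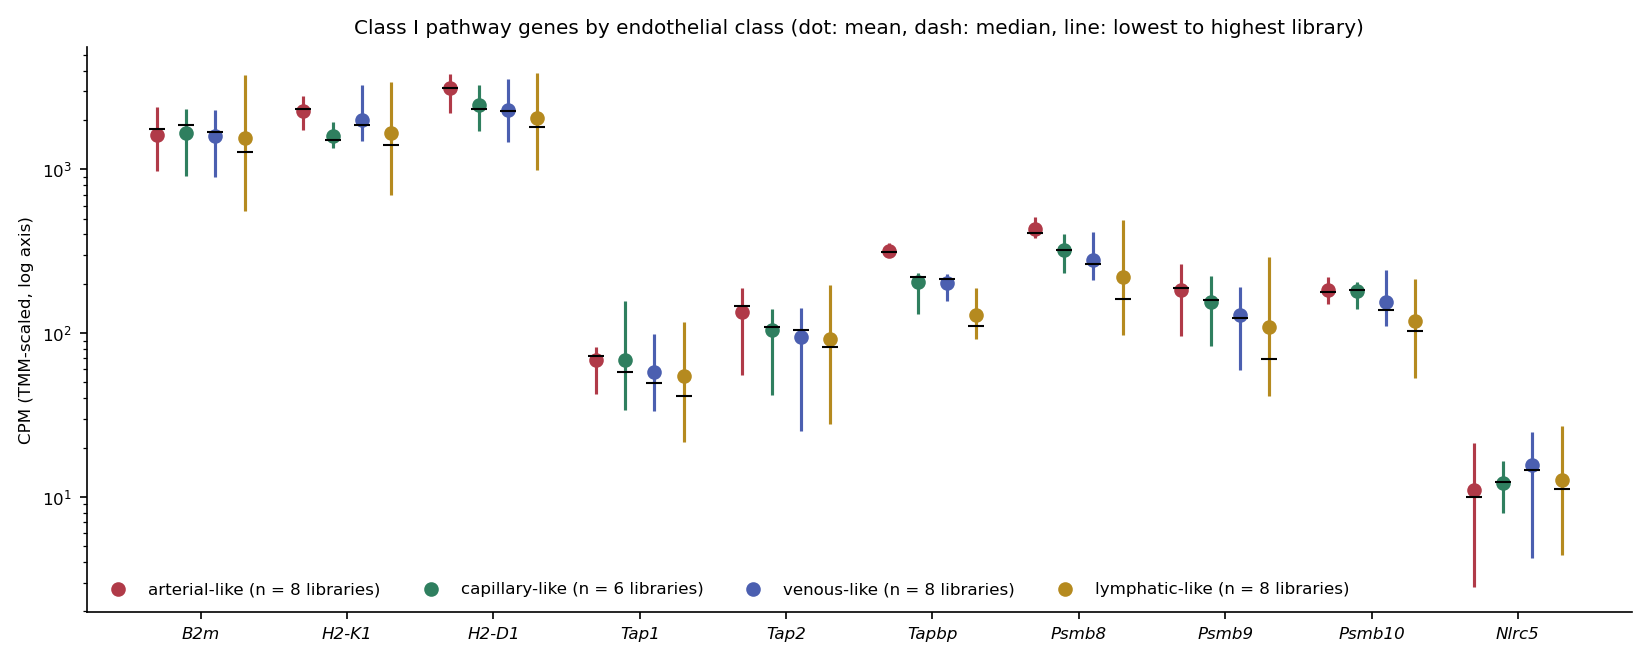
TMM-scaled CPM (log axis) of the 10 genes in arterial-, capillary-, venous- and lymphatic-like cells; dots are means, dashes medians and lines the range over 8 libraries (6 for capillary-like cells). Tapbp separates arterial-like cells (mean 317 CPM) from lymphatic-like cells (128 CPM), and the mean of B2m lies between 1557 and 1674 CPM in all classes.

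Among 18 endothelial clusters with at least 1 library of 20 or more cells, cluster 14 had the highest mean level for 9 of the 10 genes. Tapbp was the exception, highest in arterial-like cluster 2 (335 CPM, SD 20.5, n = 8 libraries). Relative to each gene's median cluster, the 10 genes had a median log2 of 1.17 in cluster 14, 0.55 in cluster 19 (led by Scgb3a1 and Col13a1), 0.50 in cluster 28 and -1.12 in lymphatic-like cluster 4, where 9 genes were at their lowest. These means are not adjusted for run, and 1654 of the 1659 cells of cluster 4 were of run A. In arterial-like cells B2m averaged 1225 CPM in run A and 2020 CPM in run B, and H2-K1 2506 and 2046 CPM. The order of clusters is thus mixed with run. Cluster 28, 128 cells led by Glycam1 and Madcam1, genes known from high endothelial venules, measured 3752 CPM of B2m (SD 553, n = 2) and 4388 CPM of H2-K1 (SD 1268, n = 2); its median UMI count was 3.02 times that of its libraries, and the leukocyte gene Ptprc was at 1.3 and 80.3 CPM in its libraries. Capillary-like cluster 5 was led in part by the interferon-gamma target Cxcl9 (474 CPM, SD 185, n = 4). Tap1 measured 43.3 CPM and Psmb8 258 CPM there, and 7 of the 10 genes were in the lower 9 of 18 clusters. Cxcl9 was not particular to cluster 5. In capillary-like cluster 1 it measured 312 to 701 CPM in run B libraries and 99.3 and 114 CPM in run A. The median log2 of the 10 genes was 0.26 in cluster 1 and -0.02 in cluster 5. A link of Cxcl9 to the class I levels was not tested.

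**Figure D5:**
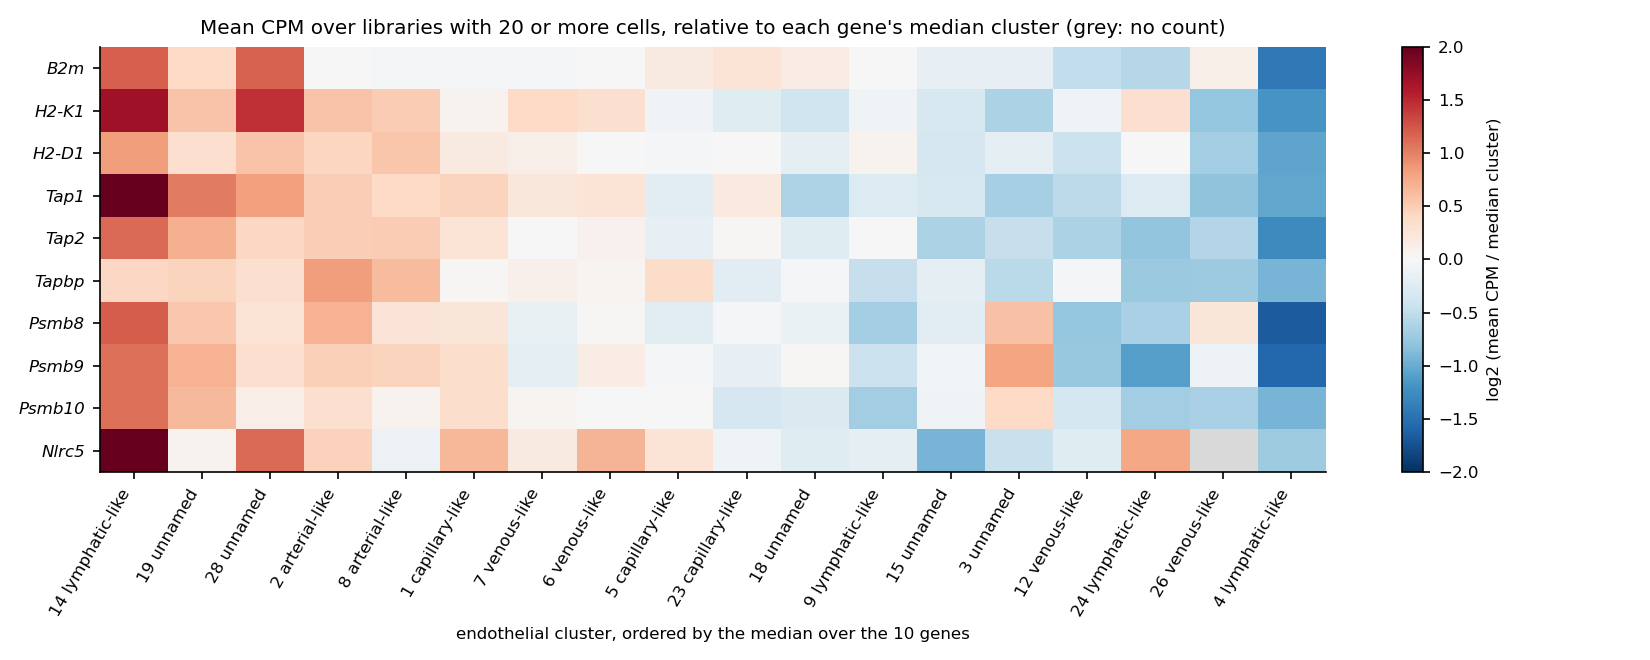
Mean CPM of the 10 genes (rows) in 18 endothelial clusters (columns, ordered by their median over the genes), as log2 relative to each gene's median cluster; grey marks no count. Cluster 14 is at the left end with a median of 1.17 and lymphatic-like cluster 4 at the right end with -1.12.

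Cells that were not endothelial by their markers passed the sort too and give a scale for these levels. T cell-like cells averaged 607 CPM of Psmb8 (n = 6 libraries), 2266 CPM of H2-K1 and 32.0 CPM of Nlrc5. Fibroblast-like cells averaged 60.9 CPM of Psmb8 (n = 8 libraries), 554 CPM of H2-K1 and 0.878 CPM of Nlrc5, and macrophage-like cells 261 CPM, 862 CPM and 6.27 CPM (n = 4 libraries). Psmb8 in cluster 14 averaged 696 CPM (SD 28.3, n = 3 libraries), within the range of T cell-like cells (525 to 727 CPM).

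The other genes of the pathway were described by a list of 39. In lymphatic-like cells 38 were tested, and for tissue on chow 3 were higher in mesentery without the block (H2-Q6, H2-Q7 and Jak1) and 11 with it, 0 lower (6.39% of all genes tested were higher with the block). Of 9 other class I heavy chains tested, 5 were higher with the block: H2-Q7 at 3.82 on the log2 scale (edgeR adjusted p = 7.45e-05), H2-Q6 at 3.07 (adjusted p = 0.000119), H2-Q4 at 1.54 (adjusted p = 0.0149), H2-T22 at 1.33 (adjusted p = 0.0098) and H2-M3 at 1.15 (adjusted p = 0.0083). H2-Q7, a nonclassical heavy chain, measured 1078 and 1018 CPM in chow mesentery against 68.3 and 80.6 CPM in chow adipose, 379 and 228 CPM in high fat mesentery and 122 and 290 CPM in high fat adipose. Both chow mesentery libraries lie far above the other 6. Of 16 regulators 5 were higher with the block; Jak1 (2.15), Ifngr2 (1.63), Stat2 (1.16) and Irf9 (0.97 on the log2 scale) were among them, all known from interferon signalling.

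Of the 6 peptide loading genes and 4 proteasome activator genes, 0 passed for tissue on chow with the block, and of the 3 constitutive catalytic subunits 1, Psmb7, was higher (1.13, adjusted p = 0.0188 in edgeR). Diet in mesentery gave 0 of 38 without the block and 7 lower with it (4.22% of all genes were lower): Jak1 (-1.62), H2-Q7 (-1.76), H2-Q6 (-1.51), Tapbpl (-1.3), Irf1 (-1.14), H2-T22 (-1.01) and H2-M3 (-1.0 on the log2 scale). The interaction gave 2 with the block, H2-Q7 (-3.21) and H2-Q6 (-2.91, both edgeR adjusted p = 0.0338). In the blood classes and all endothelial cells 0 of 39 passed in any comparison without the block, and with it only Fcgrt, the neonatal Fc receptor, lower for tissue on chow in venous-like cells. Between classes, 13 of the 39 were higher and 10 lower in lymphatic-like than in blood endothelial cells (43.5% of all genes called), from Fcgrt at 1.12 to the interferon-gamma effector Irf1, which fell by 1.41 on the log2 scale (edgeR adjusted p = 2.19e-09 and 3.96e-08).

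A list of 22 interferon-induced genes outside the pathway was read in the same sums. For tissue on chow in lymphatic-like cells 21 of 22 had positive values, with a median log2 of 1.62; 2 were higher without the block (Oasl2 and Irf7) and 11 with it (Gbp5, Isg15, Cxcl10, Oasl2, Usp18, Irf7, Ifi47, Iigp1, Cd274, Ifit2 and Ifit3), where 2.06% of all genes were called without it and 6.39% were higher with it. For diet in mesentery the median was -0.79, and 6 were lower with the block (Cxcl10, Oasl2, Irf7, Ifi47, Iigp1 and Cd274), beside 4.22% of all genes. Between classes, 11 of the 22 were lower in lymphatic-like than in blood endothelial cells, among them Gbp2, Gbp4, Gbp5 and Cxcl9, beside 20.7% of all genes lower and 43.5% called in either direction.

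Across 30 sums of a class and a library, centred within each run, the 10 genes had pairwise correlations from 0.10 to 0.93 with a median of 0.76 over 45 pairs, as a description over sums that share libraries. The genes outside the pathway and marker lists whose pattern was most like the mean of the 10 were Trim30a (r = 0.898), Srgn (0.801), Sav1 (0.794), Rtp4 (0.789) and Tma7 (0.777), out of 10247 genes.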

How the data were processed

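The deposited values are UMI counts for each gene in each barcode. Per the file headers they come from Cell Ranger 3.0.2 (run A) and 5.0.0 (run B), so software and run cannot be told apart, and the submitters' processing notes name Seurat 4.3.0 and mm10. The annotation was not given in the sources used here. Per the labels' protocols, actinomycin D was present during dissociation. Cells with at least 500 UMIs, 300 genes and at most 10% mitochondrial counts were kept (23970), and 857 were removed as doublets, the highest scores against simulated doublets at 0.8% per 1000 barcodes. Clustering used 2000 variable genes without the members and pathway list, 30 principal components, a Harmony-type correction for run, 20 neighbours and Leiden resolution 1.0 (leidenalg 0.10.2). A class needed at least 3 markers raised 1.5-fold; class names are rebuilt here. Summed counts were tested with edgeR 4.0.16 (TMM, filterByExpr, call at adjusted p under 0.05) and, as an alternative, DESeq2 1.42.0 (R 4.3.3), checked on simulated data. Lymphatic-like sums held 818180 to 4319329 UMIs. The runs pair the libraries: deviations from group means correlated between groups at 0.572 to 0.727 (all endothelial cells) and 0.592 to 0.648 (lymphatic-like). The 2 pools of a group come from different runs. P-values without the block thus measure a spread of pools and runs together. Those with the block measure what remains after a run shift common to all groups. P-values between classes measure the spread of class differences between libraries. All 10 members were described by rule; genes of like pattern were the 5 highest correlations. Members and lists were chosen with earlier results of these data known. CPM are not divided by gene length and compare samples, not genes. A gene of the pathway list is not reported here by name.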

Additional observations from a re-analysis of the deposited data

Results flagged for a closer look

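Psmb9, an immunoproteasome subunit, had a diet change in lymphatic-like cells that differed between the tissues by the interaction term, -2.44 on the log2 scale (edgeR adjusted p = 0.0363, run as a block). Its CPM went from 168 and 313 on chow to 52.3 and 84.3 on high fat diet in mesentery, and from 49.4 and 63.1 to 45.2 and 149 in adipose (run A, run B). Without the block the value was -2.62 with an adjusted p of 0.94.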

How the results depend on the processing

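Of 28 counts of members called, 19 kept their value or stayed within 1.5 times of it under each alternative run, and 9 did not. The run as a replicate block made the most difference, in lymphatic-like cells only: it took tissue on chow from 0 to 10 members, diet in mesentery from 0 to 8 and the interaction from 0 to 1, and changed no other call. DESeq2 with the block gave 9, 7 and 4, where 581, 317 and 65 of all 9316 genes were called. DESeq2 alone gave 5 for tissue on chow, where 300 genes were called. With no filter on low counts and no block, edgeR gave 8, 4 and 1. With the block, removing 2 times as many doublets gave 10, 8 and 1, and resolution 2.0 gave 9, 7 and 3. Allowing the members and pathway list among the clustering genes also gave 10, 8 and 1 with the block. Only 4 listed genes then entered, 0 of them members. This alternative therefore cannot show how calls hold where members shape the clusters. A limit of 5% mitochondrial counts gave 1 for tissue on chow without the block. With the block it gave 10 and 7 for tissue on chow and diet in mesentery. Leaving out cluster 14 left 1 for tissue on chow with the block. Leaving out each library in turn gave 0 to 2 members for tissue on chow in lymphatic-like cells and 0 in the other diet, tissue and interaction counts without the block. With it, the ranges were 3 to 10 for tissue on chow, 1 to 8 for diet in mesentery and 0 to 7 for the interaction in lymphatic-like cells, 0 to 3 for tissue on chow and 0 to 1 for diet in mesentery in venous-like cells, and 0 to 1 for tissue on chow in all endothelial cells, where Tap2 ranged from -0.02, a reversal, without the chow mesentery library of run A to 1.63 without that of run B.

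Between classes, capillary-like against arterial-like cells gave 2 with the members and pathway list allowed among the clustering genes. They gave 0 in run A alone, 4 without cluster 14 and 1 to 2 with a library left out. Venous-like against arterial-like cells gave 1 without the library block, 2 in run A and 1 in run B alone, and 3 to 5 with a library left out. Lymphatic-like against blood cells gave 3 without the library block, 1 in run B alone, 10 without cluster 14 and 4 to 9 with a library left out. A count without a share of all genes beside it, as with a library left out, shows only how the calls moved. Where a count moved, the cause was not tested. Alternatives on cluster 14, DESeq2 with the block and cell sets with the block were added after the data had been seen. With 2 pools a group, 4 residual degrees of freedom remain without the block and 3 with it. Nlrc5 and the capillary-like sums of run A are limited by depth.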
